A study of Mus musculus with 8 samples.

Results

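Transcripts of 10 genes of the antioxidant and Nrf2 programme were followed in mouse bone marrow neutrophils: Nfe2l2, Keap1, Slc7a11, Gclc, Gclm, Srxn1, Txnrd1, Sod2, Cat and Hmox1. They were picked by symbol, all 10 were rows of the gene count table of 24421 genes, and all 10 were among the 12254 genes tested. Nrf2, the product of Nfe2l2, is a transcription factor that Keap1 holds in the cytoplasm and hands to the ubiquitin ligase. Oxidants and electrophiles modify Keap1, after which Nrf2 enters the nucleus and binds antioxidant response elements together with small Maf proteins. Neutrophils make superoxide with their NADPH oxidase and carry glutathione, thioredoxin and heme-degrading enzymes that handle its products, and Sod2 is in addition a classical NF-kB target of Toll-like receptor signaling.

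The neutrophils came from female 8-week-old C57BL/6 mice, either wild type (WT) or Padi4-/- (Padi4 KO), a line that lacks exon 1 of the gene for peptidylarginine deiminase 4 in all cells. They were isolated magnetically and left unstimulated or given R848, an agonist of Toll-like receptor 7, at 1 µg/ml for 6 h. All 4 groups held 2 libraries. The sample titles mark the unstimulated libraries as 0 h whereas the protocol describes 6 h for both conditions, so an R848 response can also hold the effect of 6 h in culture. The sources say only that samples were analyzed in duplicate, so the p-values measure the spread between libraries, which may be technical.

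The libraries held 562446 to 1177972 counts on genes, and the Padi4 KO libraries were the deeper ones, with 1.66 times the mean of WT. Levels are given as CPM, the usual count scaled to a common library size, and a floor of 3 counts was 2.55 to 5.33 CPM. Padi4 itself had 590 and 527 counts in the unstimulated WT libraries and 40 and 54 in the unstimulated Padi4 KO libraries. After R848 it had 166 and 234 in WT and 34 and 21 in Padi4 KO. Summed neutrophil markers took 149257 to 155461 CPM in unstimulated WT and 121577 to 123197 CPM in unstimulated Padi4 KO, and 125270 to 139211 and 100452 to 101199 CPM after R848. Erythroid markers, 12 of 18 with counts, summed to 114 to 125 and 25.4 to 52.4 CPM in WT without and with R848, against 1158 to 1167 and 1341 to 1400 CPM in Padi4 KO, with the 4 globin genes of the list at 0 in every library. In such bulk samples, fewer cells of a type and less RNA per cell cannot be told apart.

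The core of the antioxidant response element, TGACNNNGC, was searched on both strands from 250 bases before to 50 bases after each RefSeq start on GRCm38.p6. It occurred in 4 of the 8 genes that had an entry, compared with 14% of the 27025 genes in the same table. The 4 matches are shown because these letters are what Nrf2 with a small Maf partner binds, each as 30 bases on the strand of the gene with the core in capitals. In Srxn1, Gclm and Txnrd1 the core lies on the opposite strand, and in Txnrd1 it belongs to 1 of 3 listed starts.

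Srxn1, chr2:152105542-152105571, plus strand: gcagtgggcaGCTAGGTCAgagtgagacac

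Gclm, chr3:122245413-122245442, plus strand: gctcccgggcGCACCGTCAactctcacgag

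Txnrd1, chr10:82859104-82859133, plus strand: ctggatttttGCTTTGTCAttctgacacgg

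Nfe2l2, chr2:75704884-75704913, minus strand: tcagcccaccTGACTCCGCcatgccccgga

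The first base of the core was at +28 in Srxn1, -134 in Gclm, -92 in Txnrd1 and -240 in Nfe2l2, counted from 0 at the start. The windows of Sod2, Keap1, Slc7a11 and Cat held no such letters. The NF-kB core GGNNTTTCC occurred in 0 of the 8 genes and in 6.62% of all genes. These matches describe letters in a window and were not tested as binding sites.

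In GENCODE on GRCm38, the build of the mapping, all 10 are protein-coding genes. The regulators Nfe2l2 (chr2:75675513-75704641) and Keap1 (chr9:21229730-21239361) lie on the minus strand. Of the glutathione genes, Slc7a11 (chr3:49892526-50443614) is on the minus strand and Gclc (chr9:77754535-77794485) and Gclm (chr3:122245557-122270732) on the plus strand. Srxn1 (chr2:152105516-152111376) and Txnrd1 (chr10:82833951-82897712) are on the plus strand, as are Sod2 (chr17:13006846-13040063) and Hmox1 (chr8:75093621-75100589), and Cat (chr2:103453849-103485160) is on the minus strand. Other annotated genes overlap Gclm, Txnrd1, Nfe2l2, Keap1 and Slc7a11, so reads in the shared stretches are uncertain.

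All 10 genes were higher after R848 in both genotypes. In WT all 10 rose at a false discovery rate (FDR) below 0.1 by the quasi-likelihood test of edgeR, adjusted over all genes tested after Benjamini and Hochberg as are all p-values given here, whereas 13.5% of the genes tested rose and 16% fell. In Padi4 KO all 10 rose as well, where 19.2% of genes rose and 15.9% fell. The response rule of the study also asked for a change of more than 2-fold, which 9 of the 10 genes passed in each genotype, all but Keap1. By that rule 7.17% of genes rose and 10.8% fell in WT, and 8.07% rose and 8.84% fell in Padi4 KO. Among the 6912 genes with at least 10 counts on average, a filter that all 10 passed, 22.1% rose in WT and 30.5% in Padi4 KO. In WT the 10 genes had a median log2 fold change of 3.30 beside -0.17 for all genes tested, and in Padi4 KO 2.35 beside -0.03. Monocyte and macrophage markers also moved with R848, from 346 to 359 CPM in unstimulated WT to 2911 to 2999 CPM and from 601 to 636 CPM in unstimulated Padi4 KO to 2894 to 2984 CPM. Without Adgre1, the leading gene of that list in both R848 groups, the sums were 306 to 320, 879 to 1008, 559 to 588 and 1209 to 1226 CPM in the same order, and Mrc1, Ms4a7 and Cd163 were at 0 in both R848 groups. Of the 14 markers of this list tested, 4 rose and 2 fell in WT (median log2 fold change -1.52) and 5 rose and 4 fell in Padi4 KO (median -1.68). The part of these markers in the responses was not tested.

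**Figure D1:**
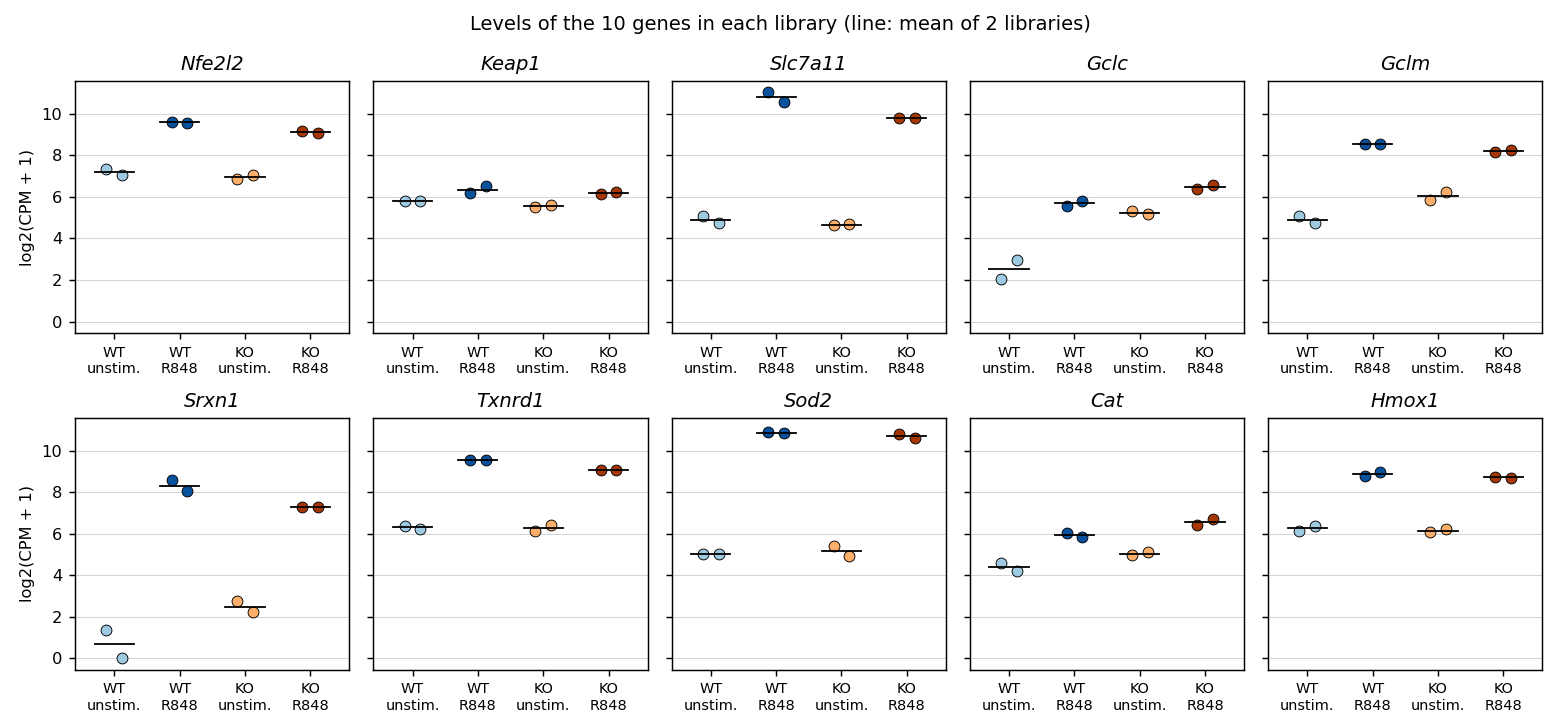
Level of each of the 10 genes in every library, as log2(CPM + 1), in WT (blue) and Padi4 KO (orange), pale without stimulation and dark after R848. Points are the 2 libraries of a group and lines their mean.

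The genes for Nrf2 and its inhibitor responded to very different extents. Nfe2l2 was at 161 and 131 CPM in unstimulated WT and at 787 and 761 CPM after R848, and at 116 and 133 CPM in unstimulated Padi4 KO and 570 and 548 CPM after R848. The unstimulated genotypes overlapped, and after R848 both Padi4 KO libraries were below both WT libraries. The response was a log2 fold change of 2.40 (SE 0.12) in WT and 2.14 (SE 0.11) in Padi4 KO, and after R848 Nfe2l2 was lower in Padi4 KO by a log2 fold change of -0.47 (SE 0.09, adjusted p = 5.64e-06). Keap1, the adaptor that marks Nrf2 for degradation, was at 55.7 and 55.3 CPM in unstimulated WT and 71.3 and 90.3 CPM after R848, against 45.2 and 48.6 and then 70.2 and 73.5 CPM in Padi4 KO. Its rise was 0.55 (SE 0.24, adjusted p = 0.0745) in WT and 0.60 (SE 0.19, adjusted p = 0.00571) in Padi4 KO on the log2 scale. It was the weakest response of the 10: DESeq2 gave adjusted p = 0.211 in WT and 0.265 in Padi4 KO, library size alone gave 0.25 (adjusted p = 0.493) and 0.23 (adjusted p = 0.368), and an FDR of 0.05 ended the WT call. Leaving out unstimulated WT replicate 1 or 2 or R848-treated WT replicate 2 ended the WT call, with adjusted p = 0.203, 0.187 and 0.346, and leaving out R848-treated Padi4 KO replicate 1 or 2 ended the Padi4 KO call, with 0.109 and 0.162. The gene that overlaps Keap1 is antisense, and the strand setting of the counting is not stated, so that their reads cannot be told apart.

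Among the genes of cystine uptake and glutathione synthesis, Slc7a11 had the steepest climb. Slc7a11, which encodes the transport subunit of the cystine/glutamate exchanger, went from 32.5 and 25.9 CPM to 2087 and 1494 CPM in WT and from 23.7 and 24.7 CPM to 880 and 895 CPM in Padi4 KO. All R848 libraries stood far above the unstimulated ones, and the Padi4 KO libraries stayed below both WT libraries although the WT duplicates differed from each other by 1.40 times. The duplicates of R848-treated WT disagreed most of the 4 pairs over all genes, with a chi-square over its degrees of freedom of 1.67 against 1.13 and 1.05 in unstimulated WT and Padi4 KO. The log2 fold change was 5.92 (SE 0.14) in WT and 5.18 (SE 0.13) in Padi4 KO, and the level after R848 was lower in Padi4 KO by -1.01 (SE 0.08, adjusted p = 2.02e-35). Leaving out 1 library moved that value between -1.3 and -0.89. The SE and p borrow their error from all genes and do not measure the spread of this gene.

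Gclc and Gclm, the catalytic and modifier subunits of glutamate-cysteine ligase, which makes the first and rate-limiting step of glutathione synthesis, differed between genotypes already without stimulation. Gclc was at 3.09 and 6.91 CPM in unstimulated WT, only 2 and 4 counts, and at 46.9 and 54.9 CPM after R848. In Padi4 KO it was at 38.4 and 35.6 CPM without stimulation and at 83.5 and 94.7 CPM after R848. Padi4 KO was above WT in both conditions with no overlap. Gclm was at 32.5 and 25.9 CPM in unstimulated WT and 377 and 372 CPM after R848, and in Padi4 KO at 57.7 and 74.0 CPM and then 289 and 308 CPM. The order of the genotypes for Gclm therefore turned over, with Padi4 KO above WT before R848 and below it afterwards. The rise of Gclc was 3.35 (SE 0.47) in WT and 1.27 (SE 0.19) in Padi4 KO on the log2 scale, and that of Gclm was 3.67 (SE 0.19) and 2.14 (SE 0.13). Since unstimulated WT rested on 6 counts of Gclc in all, the ratio of R848 to unstimulated counts there was 10.5, with a 95% counting interval from 4.50 to 29.7.

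In the thioredoxin branch, Srxn1 rose from near the floor, and Txnrd1 rose evenly across duplicates. Srxn1 encodes sulfiredoxin, which reduces overoxidized peroxiredoxins. Its core, shown above, lies just behind the start. The gene had 1 and 0 counts in the unstimulated WT libraries and 5 and 5 in those of Padi4 KO, which were 1.55 and 0 CPM and 5.65 and 3.63 CPM. After R848 it stood at 383 and 262 CPM in WT and 156 and 153 CPM in Padi4 KO. The WT level before R848 was thus at the floor, and after R848 both WT libraries were above both of Padi4 KO. By counts, the ratio of R848 to unstimulated was 390 in WT with a 95% counting interval from 69.6 to 15460, and 35.0 in Padi4 KO with an interval from 18.8 to 73.6. After R848 the Padi4 KO level was 0.485 of WT, with a counting interval from 0.416 to 0.566, and the log2 fold change was -1.05 (SE 0.13, adjusted p = 1.75e-14). Txnrd1, the cytosolic thioredoxin reductase, was at 81.9 and 74.2 CPM in unstimulated WT and 750 and 742 CPM after R848, and at 69.0 and 85.6 and then 543 and 538 CPM in Padi4 KO. Its unstimulated genotypes overlapped, and its R848 libraries separated by genotype with WT above. The log2 fold change was 3.25 (SE 0.14) in WT and 2.77 (SE 0.12) in Padi4 KO, and after R848 it was -0.46 (SE 0.09, adjusted p = 8.67e-06) in Padi4 KO against WT.

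Of the enzymes that act on superoxide, hydrogen peroxide and heme, Sod2 had a far larger response than Hmox1 and Cat. Sod2, the mitochondrial manganese superoxide dismutase, was at 30.9 and 31.1 CPM in unstimulated WT and 1902 and 1809 CPM after R848. In Padi4 KO it was at 40.7 and 29.8 CPM and then 1798 and 1576 CPM. The duplicates of the unstimulated genotypes overlapped, and after R848 the lowest WT library was just above the highest of Padi4 KO. The rise was 5.90 (SE 0.14) in WT and 5.62 (SE 0.12) in Padi4 KO, and the difference after R848, -0.14 (SE 0.07), did not pass, with adjusted p = 0.250. It did pass with relative log expression factors (-0.24) and without R848-treated WT replicate 1 (-0.24) or 2 (-0.25) or Padi4 KO replicate 1 (-0.34), and it was 0.08 with library size alone.

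Hmox1, heme oxygenase 1, which opens heme to biliverdin, iron and carbon monoxide, was at 69.6 and 81.1 CPM in unstimulated WT and 438 and 496 CPM after R848, against 65.6 and 74.0 and then 426 and 406 CPM in Padi4 KO. It rose by a log2 fold change of 2.64 (SE 0.15) in WT and 2.56 (SE 0.12) in Padi4 KO. Its genotypes overlapped without stimulation and lay close together after R848, where the difference was -0.17 (SE 0.10, adjusted p = 0.310). That difference passed with relative log expression factors (-0.27) and without R848-treated WT replicate 1 (-0.40) or Padi4 KO replicate 1 (-0.32). Cat, the catalase of peroxisomes, was at 23.2 and 17.3 CPM in unstimulated WT and 65.2 and 56.7 CPM after R848, and at 30.5 and 33.4 and then 84.4 and 104 CPM in Padi4 KO. Padi4 KO was above WT in both conditions. The rise of Cat was 1.57 (SE 0.32) in WT and 1.54 (SE 0.19) in Padi4 KO on the log2 scale.

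**Figure D2:**
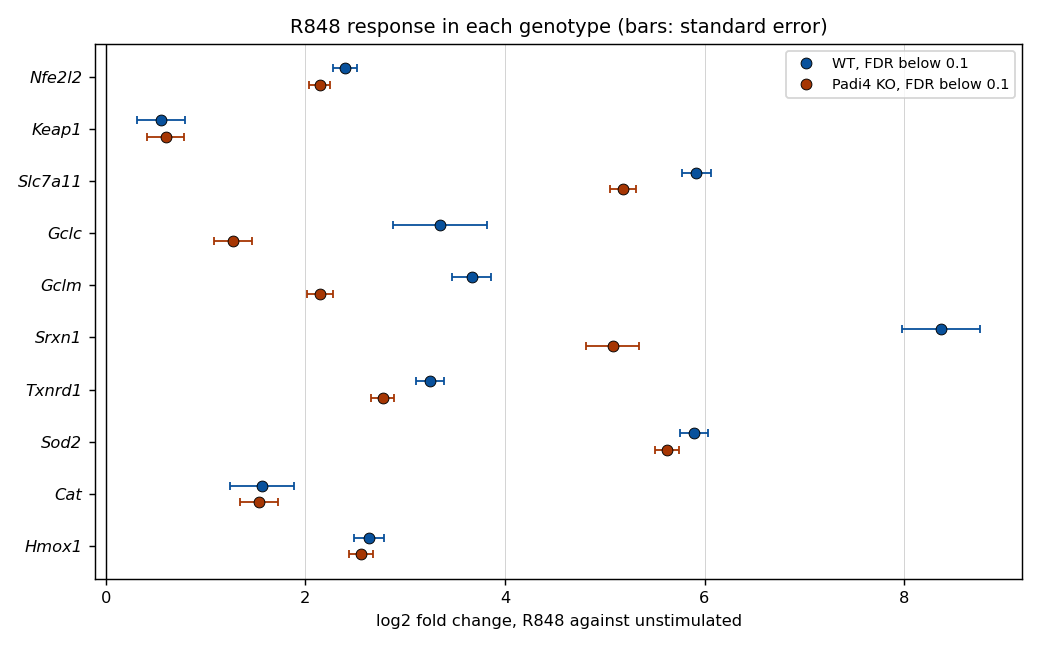
Log2 fold change of R848 against unstimulated for each gene in WT (blue) and Padi4 KO (orange), with the standard error as bars. All points are past FDR 0.1. The WT point lies to the right of the Padi4 KO point except for Keap1, which was not counted over all genes. The difference passed only for Gclm, Gclc and Srxn1, and Cat and Hmox1 are apart by less than their standard errors.

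Without stimulation, the question was whether loss of Padi4 alone changed these genes. Gclc and Gclm were higher in Padi4 KO, and 0 of the 10 were lower in edgeR's test, at an unadjusted p under 0.05 or with DESeq2, where 9.55% of all genes tested were higher and 14.4% lower. This split, 1170 and 1763 genes, turned over with library size alone (1901 and 561) and without any 1 of the R848 libraries. The log2 fold change was 2.87 (SE 0.46, adjusted p = 1.27e-08) for Gclc and 1.20 (SE 0.25, adjusted p = 3.26e-05) for Gclm. By counts the Gclc ratio was 7.50, with a 95% counting interval from 3.30 to 21.0. Both calls held under all 15 alternatives tried. Cat, at 0.66 (SE 0.33, adjusted p = 0.153), and Srxn1, whose 10 against 1 counts gave a ratio of 5.42 with an interval from 0.771 to 235, were above WT in both libraries but did not pass. Cat did pass with library size alone (0.94) and without any 1 of the R848 libraries (0.79, 0.81, 0.79 and 0.79). Slc7a11 and Keap1 were below WT in both libraries, at -0.27 and -0.23, and did not pass. Those 2 and the other 4 genes lay between -0.27 for Slc7a11 and 0.14 for Sod2. Of the erythroid markers, 11 of 12 tested passed as higher in these Padi4 KO libraries, with the sums given above, while 11 of 12 neutrophil markers passed as lower. Summed stromal markers were at 523 to 663 CPM against 201 to 229 CPM in WT, and the monocyte and macrophage sum was at 601 to 636 against 346 to 359 CPM. The part of these markers in the higher Gclc and Gclm was not tested.

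After R848, 7 of the 10 genes differed between the genotypes and did not share a direction. Nfe2l2, Slc7a11, Gclm, Srxn1 and Txnrd1 were lower in Padi4 KO, and Gclc and Cat were higher, against 7.81% of genes lower and 9.46% higher among all tested. Among the lower genes the largest differences were those of Srxn1 (-1.05) and Slc7a11 (-1.01), followed by Nfe2l2 (-0.47), Txnrd1 (-0.46) and Gclm (-0.33, SE 0.11, adjusted p = 0.0248). Gclc was higher by 0.80 (SE 0.22, adjusted p = 0.00338) and Cat by 0.63 (SE 0.21, adjusted p = 0.0201). Keap1, Sod2 and Hmox1 did not pass, at -0.18, -0.14 and -0.17, and all 3 moved to 0.03, 0.08 and 0.04 with library size alone. Scaling shifted this comparison as a whole, since the median of the 6912 better expressed genes moved by 0.21 with library size alone and by -0.10 with relative log expression factors. With the latter, 990 of all genes were higher and 1359 lower, against 1159 and 957. Slc7a11, Srxn1, Nfe2l2 and Txnrd1 passed as lower under all 15 alternatives. Gclm lost its call with DESeq2 (-0.43, adjusted p = 0.134) and with library size alone (-0.11, adjusted p = 0.570).

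The 2 higher genes were less stable. DESeq2 called neither, with adjusted p = 0.279 for Gclc and 0.444 for Cat. Gclc lost its call without R848-treated WT replicate 1 (0.55, adjusted p = 0.194) or Padi4 KO replicate 2 (0.61, adjusted p = 0.111). Cat lost it without R848-treated WT replicate 1 (0.59, adjusted p = 0.148) or 2 (0.44, adjusted p = 0.355) or Padi4 KO replicate 2 (0.38, adjusted p = 0.397). In these R848 libraries 12 of the 12 tested erythroid markers were higher in Padi4 KO and 10 of 12 neutrophil markers lower, and their part in the differences of either direction was not tested.

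**Figure D3:**
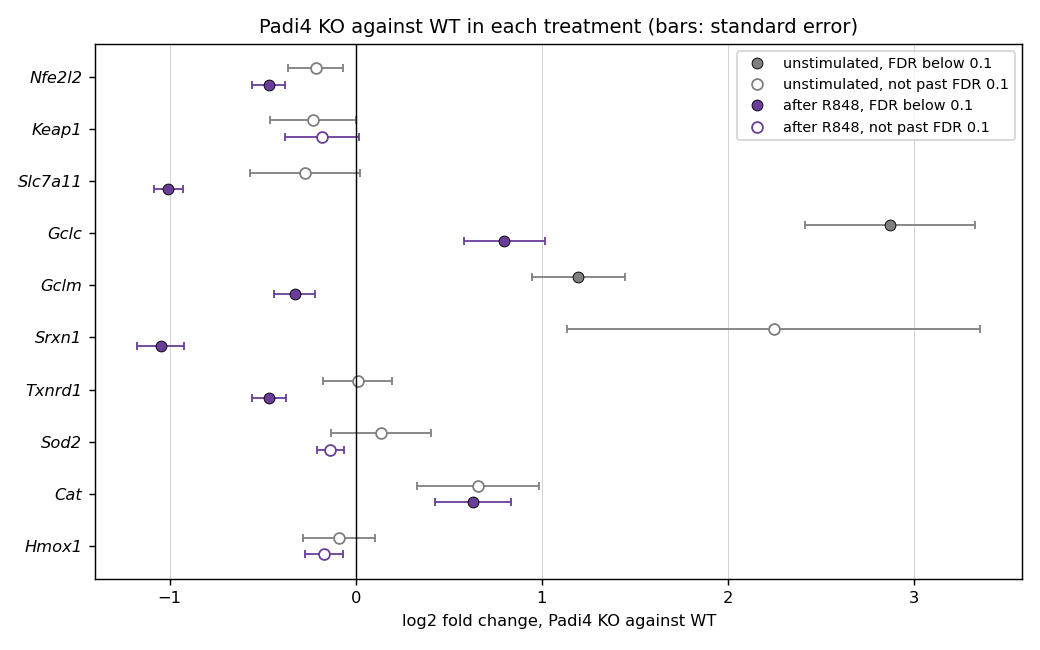
Log2 fold change of Padi4 KO against WT for each gene, unstimulated (grey) and after R848 (purple), with the standard error as bars and filled points past FDR 0.1. Without stimulation Gclc and Gclm are filled and to the right of 0, and after R848 Nfe2l2, Slc7a11, Gclm, Srxn1 and Txnrd1 are filled to the left and Gclc and Cat to the right.

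Whether the response itself depended on genotype was tested as the difference between the 2 log2 fold changes. Gclm, Gclc and Srxn1 responded less in Padi4 KO, and 0 responded more in edgeR's test, at an unadjusted p under 0.05 or with DESeq2, where 1.26% of all genes tested had a smaller and 3.45% a larger log2 fold change in Padi4 KO. That split over all genes, 154 smaller and 423 larger, turned over when R848-treated WT replicate 1 or 2 (246 and 51, 350 and 121) or Padi4 KO replicate 1 or 2 (228 and 67, 199 and 69) was left out. With all libraries kept, the split turned over with DESeq2 (90 smaller and 35 larger) and with relative log expression factors (233 and 160). Of the 12 erythroid markers tested, 7 had a larger response in Padi4 KO (median difference 2.99). Mean stromal sums were lower after R848, at 44.2 against 593 CPM in Padi4 KO and 36.1 against 215 CPM in WT, and the part of either list was not tested. The difference was -1.52 (SE 0.27, adjusted p = 5.74e-06) for Gclm and -2.07 (SE 0.56, adjusted p = 0.0113) for Gclc. For both, the unstimulated Padi4 KO level was higher to begin with. For Srxn1 the fitted difference was -3.29 (SE 1.07, adjusted p = 0.0607), and it rested on 1 count in unstimulated WT, so that its size depends on the prior count of the model. The Gclm call held under all 15 alternatives, over a range from -1.79 to -1.30. That of Gclc was lost without unstimulated WT replicate 1 (-1.59, adjusted p = 0.267), and DESeq2 gave no adjusted p for it. That of Srxn1 was lost with DESeq2 (adjusted p = 0.233), at an FDR of 0.05, and without unstimulated WT replicate 1 or 2 (-6.04 and -2.48) or unstimulated Padi4 KO replicate 1 or 2 (-3.03 and -3.62).

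Slc7a11 and Txnrd1 had differences of -0.74 (SE 0.30, adjusted p = 0.226) and -0.48 (SE 0.21, adjusted p = 0.236), which did not pass. Leaving out R848-treated WT replicate 2 brought Slc7a11 (-1.19), Txnrd1 (-0.72) and Nfe2l2 (-0.51) past the threshold. Txnrd1 also passed without R848-treated WT replicate 1 (-0.75), without R848-treated Padi4 KO replicate 1 (-0.72) or 2 (-0.69), and with relative log expression factors (-0.63). The values for Nfe2l2, Sod2, Hmox1, Cat and Keap1 were -0.25, -0.27, -0.08, -0.03 and 0.05. These 5 did not pass. The sign for Keap1 turned with the scaling and with the library left out, and those for Cat and Hmox1 turned on leaving out some of the unstimulated libraries (Cat up to 0.16, Hmox1 up to 0.03).

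Compared per kilobase of annotated exon, joined over all transcripts of a gene, the order of the genes changed with R848. That length was 1751 bases for Hmox1, 10008 for Sod2 and 13922 for Slc7a11, so the order depends on this choice of length. In unstimulated WT the highest levels were those of Hmox1 (43.0 CPM per kb) and Nfe2l2 (38.5), well above Keap1 (11.8) and, close to it, Txnrd1. Cat (7.74), Gclm (4.64), Sod2 (3.10), Slc7a11 (2.10), Gclc (1.33) and Srxn1 (0.274) followed. In unstimulated Padi4 KO, Hmox1 (39.9) and Nfe2l2 (32.9) again led, and Cat, Txnrd1, Gclm, Keap1 and Gclc lay close together between 12.2 and 9.82 CPM per kb. After R848, Hmox1 (267 CPM per kb), Nfe2l2 (204) and Sod2 (185) led in WT, and Slc7a11 (129), Srxn1 (114) and Txnrd1 (105) came next, where the duplicates of Srxn1 overlapped with those of both others and those of Slc7a11 lay just above those of Txnrd1. In Padi4 KO, Hmox1 (238), Sod2 (169) and Nfe2l2 (147) led and Txnrd1 (76.2) stood above Slc7a11 (63.8) and Srxn1 (54.8). Gclc was the lowest of the 10 in WT after R848, at 13.5 CPM per kb, and Keap1 in Padi4 KO, at 15.3.

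A wider list of 80 genes of the same biology put these responses in context, with 75 of them tested. In WT 24 rose and 15 fell, where 13.5% of all genes tested rose and 16% fell. In Padi4 KO 27 rose and 11 fell, where 19.2% rose and 15.9% fell. With library size alone the counts were 22 and 20 in WT and 24 and 24 in Padi4 KO. The list therefore did not rise as one, and its median log2 fold change was 0 in WT and 0.30 in Padi4 KO. The rising genes of highest fold were Abcc1, an exporter of glutathione conjugates (5.66 in WT and 5.28 in Padi4 KO), Fth1, the ferritin heavy chain (4.51 and 4.06), and Nqo1, a quinone reductase (4.39 and 4.35). Slc3a2, the heavy chain that pairs with Slc7a11 in the cystine exchanger, rose by 4.06 and 2.83, and Sqstm1, the p62 protein that binds Keap1, by 3.61 and 3.50. Among 11 regulators tested, 5 rose in WT (Sqstm1, Nfe2l1, Bach1, Mafg and Fbxw11) and Btrc fell. In Padi4 KO Sqstm1, Nfe2l1, Bach1, Mafg, Fbxw11, Mafk and Cul3 rose and 0 fell. In the glutathione group of 26, 4 rose and 5 fell in WT and 6 rose and 5 fell in Padi4 KO, with the transferases Mgst1 and Mgst2 falling in both. Of 17 thioredoxin genes, 7 rose and 2 fell in WT and 6 rose and 2 fell in Padi4 KO. Of 18 genes of NADPH supply, quinones, heme, iron and export, 8 rose in each genotype, and 6 fell in WT and 3 in Padi4 KO. Sod1 and Sod3, the other superoxide dismutases, did not pass, and Ccs, the copper chaperone of Sod1, fell in both genotypes on few counts. Names outside the rule for named genes were added here after their values were seen, to spell out small counts.

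**Figure D4:**
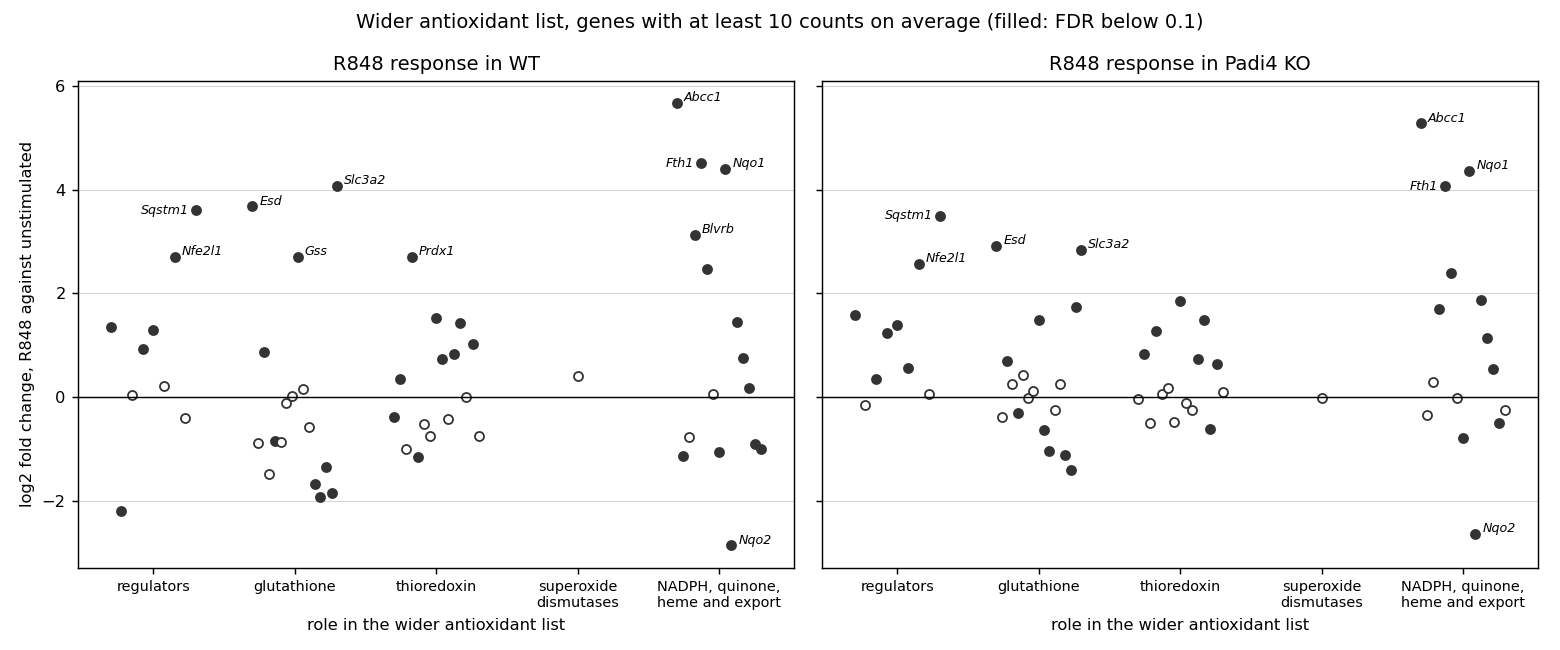
Log2 fold change of R848 against unstimulated for genes of the wider list with at least 10 counts on average and more than 3 counts in the genotype shown, 56 in WT (left) and 57 in Padi4 KO (right), by role; filled points are past FDR 0.1 and names are given beyond a log2 fold change of 2.5 in either direction. A few genes of transport, iron and quinone handling reach 4 or more in WT, while most of the list lies between -2 and 2.

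Slc3a2, like its partner Slc7a11, separated by genotype after R848. It was at 37.1 and 39.7 CPM in unstimulated WT and 660 and 627 CPM after R848, and in Padi4 KO at 45.2 and 59.5 CPM and then 384 and 383 CPM. After R848 it was lower in Padi4 KO with no overlap, by -0.74 (SE 0.10, adjusted p = 1.06e-12), and its response was smaller by -1.23 (SE 0.26, adjusted p = 0.000266). Prdx1, a peroxiredoxin that Srxn1 repairs, was at 44.8 and 34.5 CPM in unstimulated WT and 277 and 244 CPM after R848, against 87.1 and 76.9 and then 190 and 201 CPM in Padi4 KO. Both Padi4 KO libraries were above WT without stimulation and below it after R848, but the latter difference (-0.41, adjusted p = 0.0131) was not called with DESeq2 (adjusted p = 0.106) or library size alone (-0.19, adjusted p = 0.360). Its response was smaller in Padi4 KO by -1.43 (SE 0.26, adjusted p = 7.37e-06). Copies of Fth1, Prdx1 and Prdx2 elsewhere in the genome make their counts uncertain.

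Several wider genes were higher in Padi4 KO whatever the treatment, among genes named for the size of their change. Mgst3, Glrx5 and Txnrd2 reached a mean of 10 counts only through the Padi4 KO libraries, which were also deeper. The rule for naming genes thus favoured genes high there. Prdx2, a peroxiredoxin abundant in red cells, was at 20.1 and 22.4 CPM in unstimulated WT and 150 and 149 CPM in unstimulated Padi4 KO, and at 12.2 and 7.08 against 166 and 143 CPM after R848. Blvrb, the biliverdin reductase B of red cells, was higher by 2.51 without stimulation and by 1.08 after R848. Mgst3, a microsomal glutathione transferase, had 1 and 0 counts in all in WT without and with R848, against 27 and 89 in Padi4 KO. Glrx5, a glutaredoxin of iron-sulfur cluster assembly, had 3 counts in WT and 115 in Padi4 KO after R848, a ratio of 18.3 with a counting interval from 6.10 to 89.9. Txnrd2, the mitochondrial thioredoxin reductase, had 3 against 40, a ratio of 6.36 with an interval from 2.03 to 32.1, and DESeq2 did not call it (adjusted p = 0.113). Without stimulation Txnrd2 was higher by 1.75 (SE 0.57, adjusted p = 0.0141), a call lost with DESeq2 (adjusted p = 0.207) and without WT replicate 1 (1.67, adjusted p = 0.137) or Padi4 KO replicate 2 (1.56, adjusted p = 0.126). The erythroid marker sum given above was likewise higher in Padi4 KO in both conditions, and its part in these differences was not tested. Of the 75 genes of the list tested, 13 were higher and 19 lower in Padi4 KO without stimulation, against 9.55% and 14.4% of all genes, and 16 were higher and 18 lower after R848, against 9.46% and 7.81%. With library size alone the counts were 18 and 8, and 20 and 5. With relative log expression factors the counts were 13 and 17, and 15 and 26. Without stimulation they were 10 and 11 with DESeq2 and 9 and 12 without unstimulated WT replicate 1.

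Sod2 had the highest mean count of the 10 genes, and the genes whose log2 CPM followed it most closely over the 8 libraries were Abcc1 (Pearson r = 0.999), Adgre1 (0.999) and Fth1 (0.998), out of 6912 genes. Since the 8 libraries form 4 groups of which 2 are high, such values describe a shared step between unstimulated and R848 libraries. Adgre1, which encodes the F4/80 surface receptor, went from 40.2 and 38.0 CPM to 2527 and 2358 CPM in WT and from 39.6 and 34.1 CPM to 1858 and 1739 CPM in Padi4 KO.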

How the data were processed

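RNA of 8 neutrophil libraries was sequenced as paired ends on a MiSeq. Per the labels and the methods of the study, the authors checked reads with FastQC 0.11.7, trimmed them with cutadapt 1.16, filtered them with the FASTX toolkit, mapped them to mm10 with STAR 2.5.3a and counted them with HTSeq 0.6.1p1. The authors deposited raw counts per gene symbol, without normalization. The annotation and strand setting are not given in the sources used here. HTSeq summary lines were left out, and 87.0% to 89.5% of each library lay on genes.

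Groups came from the sample labels. Genes with at least 1 count in at least 2 libraries were fitted in edgeR 4.0.16 (R 4.3.3, limma 3.58.1) with TMM factors, 1 mean per group and the robust quasi-likelihood test, with Benjamini-Hochberg adjustment over all 12254 genes tested. The authors' filter and FDR of 0.1 were kept. Calls rest on the FDR alone, and their 2-fold rule was counted beside it only for the responses of the 10 genes and of all genes. Their DESeq2 Wald test was run here as an alternative (1.42.0). A standard error was taken as the size of a log2 fold change over the root of its F statistic. CPM uses the TMM factors, except in marker sums and floors, which use library totals. Counting intervals are exact conditional Poisson intervals and, like the floors, cover counting error only. With 2 libraries a group, the smallest exact p for a single gene is 0.333, so the test borrows its error from all genes.

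The members and gene lists were chosen with earlier results of these data known. Named were Padi4, the 10 members, the 4 genes of the wider list with the largest change in each contrast among those called with at least 10 counts on average, and the 3 genes most like the member with the highest count. The alternatives were DESeq2, 2 other filters on low counts, library size alone, relative log expression factors, the replicate block, an FDR of 0.05 and leaving out each library. Gene lengths and positions are from GENCODE on GRCm38. Promoter windows are from RefSeq on GRCm38.p6, in which 8 of the 10 members were matched and Gclc and Hmox1 were not. The other experiments of the study were not analysed here.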

Additional observations from a re-analysis of the deposited data

Results flagged for a closer look

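The R848 response of 3 of the 10 genes differed between the genotypes in the test of the difference itself, where 1.26% of all genes tested had a smaller and 3.45% a larger response in Padi4 KO. That split over all genes turned over when any 1 of the 4 R848 libraries was left out. It also turned over with DESeq2 and with relative log expression factors. Taken as Padi4 KO less WT, the difference of log2 fold changes was -1.52 for Gclm, -2.07 for Gclc and -3.29 for Srxn1. For Gclm and Gclc the unstimulated Padi4 KO libraries were above those of WT, and for Gclm the order turned over after R848. Gclc stayed higher in Padi4 KO after R848, and its gain in mean CPM was not smaller there. For Srxn1 the unstimulated WT libraries held 1 count in all, and its call was lost with DESeq2, at an FDR of 0.05 and without any 1 of the 4 unstimulated libraries. DESeq2 called 1 of the 3 genes, Gclm, and gave no adjusted p for Gclc. With 2 libraries a group, the check for a library far from its own group could not be run. The duplicates of R848-treated WT agreed least (chi-square over degrees of freedom 1.67, against 1.13 and 1.05 in unstimulated WT and Padi4 KO).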

How the results depend on the processing

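The R848 responses of 9 of the 10 genes, all but Keap1, kept their direction and passed under all 15 alternatives. Over the 10 genes and 5 comparisons, changing the tool, filter, scaling or threshold moved 4 values past the threshold and 11 out of it, and leaving out a library moved 15 in and 15 out, with 0 called values turning direction. DESeq2 gave no adjusted p for the difference of response of Gclc, Cat and Keap1, which are not among these values. In the wider list, library size alone turned Prdx2 in Padi4 KO to -0.33 and Fth1 after R848 to 0.016. DESeq2 called fewer genes: 2264, 2121, 1061, 1008 and 125, against 3621, 4299, 2933, 2116 and 577 for the WT response, the Padi4 KO response, the genotypes without stimulation, after R848 and the difference of response. It called 4 of the members after R848 and 1 for the difference. The cause was not tested. Leaving out 1 library gave 1944 to 2795 genes for the unstimulated genotypes and 268 to 471 for the difference, and 1 (without unstimulated WT replicate 1) to 6 (without R848-treated WT replicate 2) members for the latter. Without unstimulated WT replicate 1, R848-treated WT replicate 1 and R848-treated Padi4 KO replicates 1 and 2 the difference gave 332, 297, 295 and 268 genes. The split into higher and lower moved with the tool, with scaling and with the R848 library left out. It was 1657 and 1964 in the WT response and 1075 and 3127 with library size alone, 2352 and 1947 against 1264 and 3823 in Padi4 KO, 1170 and 1763 against 1901 and 561 without stimulation, and 1159 and 957 against 1870 and 417 after R848, where relative log expression factors gave 990 and 1359. For the difference it was 423 and 154, against 160 and 233 with those factors and 255 and 170 with library size alone. Those factors gave 1807 and 1740 in the WT response, 2059 and 2288 in that of Padi4 KO and 1309 and 1502 without stimulation. DESeq2 gave 1285 and 979 in the WT response and 1206 and 915 in that of Padi4 KO. It gave 475 and 586 without stimulation, 387 and 621 after R848 and 35 and 90 for the difference. Leaving out R848-treated WT replicate 1 or 2 or Padi4 KO replicate 1 or 2 gave 51 and 246, 121 and 350, 67 and 228, and 69 and 199 for the difference, 648 and 1119, 661 and 1050, 741 and 1034, and 785 and 1069 after R848, and 1549 and 1246, 1600 and 1183, 1434 and 1116, and 1424 and 1130 without stimulation. In the same order it was 1656 and 1263, 1645 and 1223, 1842 and 1642, and 1843 and 1640 in the WT response, and 1936 and 2609, 1967 and 2573, 1531 and 1859, and 1611 and 1828 in that of Padi4 KO. With the replicate block, 3543, 4138, 2847, 2081 and 575 genes were called, and no call on the 10 genes changed. Libraries with the same number showed almost no shared deviation (correlations from -0.0057 to 0.036 over 2919 genes). Apart from R848-treated WT, duplicates differed by little more than counting error over all genes. These correlations therefore cannot show whether the numbers pair the libraries, and the sources do not say. The low counts of Srxn1 and Gclc in unstimulated WT limit the size of their differences.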

Other observations

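Markers of further cell types of the bone marrow were summed as well. Lymphocyte markers summed to 11.9 to 45.2 CPM and eosinophil and basophil markers to 19.4 to 74.9 CPM over the 8 libraries. Stromal markers were higher without stimulation, at 201 to 229 CPM in WT and 523 to 663 CPM in Padi4 KO, than after R848, at 32.9 to 39.3 CPM and 40.7 to 47.6 CPM. Leading genes of the stromal list were the collagens Col1a1 and Col1a2 without stimulation and Pecam1 after R848.

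In the wider antioxidant list, Hagh, a glyoxalase, fell after R848 in WT by a log2 fold change of -1.93, and its response was higher in Padi4 KO by 2.18. Its counts in the R848-treated WT libraries were 1 and 7, and without replicate 1 of that group both calls were lost, at -1.10 (adjusted p = 0.162) and 1.21 (adjusted p = 0.488). The difference of response was also lost without R848-treated Padi4 KO replicate 2 (1.81, adjusted p = 0.148).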
